A study of Mus musculus with 23 samples.

Results

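Serpine2, Plau, Plat, Plaur, Timp1, Timp2 and Timp3 are 7 of the 55573 genes in the count files. They encode plasminogen activators, the receptor of one of them, and secreted inhibitors of pericellular proteases. They were selected by symbol from their levels, in reads per 1e6 counted (CPM, scaled by TMM), in the KO, WT, retinoic acid and doxycycline groups of these same libraries. Their levels in those groups are therefore given as a description. All 7 symbols matched 1 Ensembl gene each.

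The study measured polyadenylated RNA of mouse embryonic stem cells (ESCs) by QuantSeq, which reads 1 tag near the 3′ end of each transcript. Its subject is the role of SET, a chromatin protein that also inhibits PP2A, in ESC differentiation. The knockout (KO) libraries came from R1 ESCs, a mouse line, with genotype SET-/-, as KO1 and KO2, and were set against wild-type (WT) R1 ESCs. Set 1 held 2 KO1, 2 KO2 and 2 WT samples, and set 2 held 2 KO1, 2 KO2 and 2 WT samples. After 4 days of retinoic acid (RA, a morphogen that drives ESCs to differentiate) set 2 also held 2 KO samples, both titled KO1, and 1 WT sample. In its deposited name KO RA sample 2i carries the code used for KO2, and its title was followed here. KH2 ESCs, built for doxycycline-controlled transgenes, carried inducible SETa and were sampled with 1 μg/mL doxycycline (Dox) for 24 h and without it, with 2 samples each. All cells, controls included, were grown on mouse embryonic fibroblast feeders in serum with LIF, per the labels. The labels do not tell how many clones KO1 and KO2 stand for, and the deposited names of the KO libraries carry other codes in set 1 than in set 2. Nor do they say that replicates were separate cultures, so p-values measure only a spread that may be technical. Samples are called by the codes of their titles (WT 1a, 1b, 2a and 2b, KO1 1c, 1d, 2c and 2d, KO2 1e, 1f, 2e and 2f, with 2g to 2i for RA).

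Plasminogen activators cut the circulating zymogen plasminogen into plasmin, a broad protease that degrades fibrin and matrix proteins and activates latent growth factors and matrix metalloproteinases. Urokinase (Plau) does so at the cell surface, held by its receptor (Plaur), and tissue-type activator (Plat) does so on fibrin and, in the nervous system, around neurons. Protease nexin 1 (Serpine2) traps thrombin and both activators, and TIMPs bind the active sites of matrix metalloproteinases. In early mouse embryos and teratocarcinoma cells, plasminogen activator is a classical product of differentiating endoderm, with tissue-type activator in the parietal lineage.

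Upstream sequence is shown for 3 of the genes, because they behaved differently: Serpine2 was higher in KO in each set, Plaur moved with both KO and Dox, and Timp1 passed no KO comparison. The bases are RefSeq's, build GRCm38.p6, counted back from the gene's RefSeq start, with bases that an annotated exon covers left out. RefSeq promoter entries were matched for 5 of the 7 genes. The windows of Serpine2 and Timp2 lie within the counted Ensembl genes, which run to 79861180 and 118355740 on the minus strand. That of Timp3 reaches past its Ensembl start at 86300372. For these genes an Ensembl start thus lies further upstream than the RefSeq start. Capitals mark GC boxes (GGGCGG, the site of Sp1 and KLF proteins) and, in Plaur only, an AP-1 site (TGANTCA, bound by Fos and Jun dimers). Timp1 is read on the plus strand, where its GC box appears as the reverse complement.

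Serpine2, chr1:79858697-79858915, minus strand: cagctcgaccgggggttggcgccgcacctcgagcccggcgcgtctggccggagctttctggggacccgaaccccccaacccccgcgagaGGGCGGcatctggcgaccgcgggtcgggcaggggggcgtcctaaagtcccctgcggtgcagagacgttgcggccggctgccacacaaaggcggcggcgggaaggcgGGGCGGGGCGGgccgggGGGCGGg
Plaur, chr7:24462233-24462482, plus strand: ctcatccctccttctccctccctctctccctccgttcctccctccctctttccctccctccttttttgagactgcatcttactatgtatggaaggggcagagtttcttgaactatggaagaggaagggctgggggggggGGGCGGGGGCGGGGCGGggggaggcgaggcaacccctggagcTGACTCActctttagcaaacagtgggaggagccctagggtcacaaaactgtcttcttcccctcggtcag
Timp1, chrX:20869916-20870165, plus strand: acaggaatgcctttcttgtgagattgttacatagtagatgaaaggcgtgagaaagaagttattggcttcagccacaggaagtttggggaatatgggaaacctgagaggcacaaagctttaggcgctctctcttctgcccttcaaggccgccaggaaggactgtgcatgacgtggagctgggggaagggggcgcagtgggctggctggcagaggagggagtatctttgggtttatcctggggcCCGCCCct

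Over the full 250 bases upstream, searched on both strands with overlapping matches counted, Serpine2 held 6 GC boxes, Plaur held 3, and Timp1, Timp2 and Timp3 held 1 each. Those of Serpine2 at -19 and -13 lie in the exon bases left out of the printed stretch. That of Timp3, at -15, lies past its Ensembl start. The AP-1 match of Plaur began 69 bases before the start (position -69), and the other 4 promoters held none. The TCF/LEF motif CTTTGAT, the retinoic acid receptor half-site AGGTCA and the p53 half-site matched none of the 5. Of 32851 promoters of the same length, 32.7% held a GC box, 6.75% the AP-1 site, 3.21% the TCF/LEF motif, 14% the half-site AGGTCA and 7.13% the p53 half-site. The Serpine2 window was 78.8% G or C with 34 CG dinucleotides, against 59.6% and 6 for Plaur and 54.4% and 6 for Timp1. A match is a string of letters, and binding was not measured.

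Set itself checked the labels. It stood at 22.1, 21.5, 17.3 and 25.9 CPM in set 1 KO samples, against 977 and 1020 CPM in WT. In set 2 it stood at 518, 562, 394 and 272 CPM in KO, against 1191 and 1401 CPM in WT, so set 2 KO samples kept more of the transcript than set 1 KO samples did. After RA it stood at 271 and 185 CPM in KO, against 559 CPM in WT. The labels do not place the edit, and a 3′ tag outside it does not check the lesion. Total counts ran from 806412 to 1445013 per sample in set 1, 2833064 to 10217040 in untreated set 2, 3904924 to 5047363 after RA and 4848478 to 6472695 in KH2 cells. A floor of 3 counts then equals 0.294 to 3.72 CPM. The 10 untreated set 2 libraries fell into 2 sub-batches, A and B, with 3 KO and 2 WT libraries each, cut at the largest gap (18.3 units) of the leading principal component, which held 34.7% of the variance. This cut was made after seeing the data, and the titles name no such batches. Libraries of 1 title code differed from each other (chi-square per degree of freedom 4.46 to 8.73) more than libraries of 1 group within a sub-batch did (1.77 to 2.98). Samples 2a, 2b, 2d and 2e each sum 1 library of A and 1 of B. KO samples 2c (B) and 2f (A) hold 1 library only.

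Loss of SET in untreated ESCs went with higher Serpine2 in both sets and with higher Timp2, to unequal degrees, while Timp1 passed in neither. In set 1, 5 of the 6 genes tested passed an adjusted p of 0.05 over all genes (edgeR quasi-likelihood test), all higher in KO; 12.3% of all tested genes passed there. In set 2, 2 of 6 passed, Serpine2 and Timp2, both higher in KO, beside 9.19% of all genes. Over both sets with set as a covariate, Serpine2, Plaur, Timp2 and Timp3 passed, 4 of 6, beside 18.7%. The fit over both sets uses the same samples again, and the genes were selected on these contrasts, so nothing is read from the shares. The median log2 fold change of the 6 tested genes was 1.98 in set 1 and 0.59 in set 2, beside -0.02 and 0.01 over all genes. In set 1 WT samples Plat had 3 and 4 counts and Timp3 had 3 and 2. Both met the low-count filter there only through their KO samples. Their being tested thus required higher KO levels, and nothing is read from the set 1 median either.

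**Figure D1:**
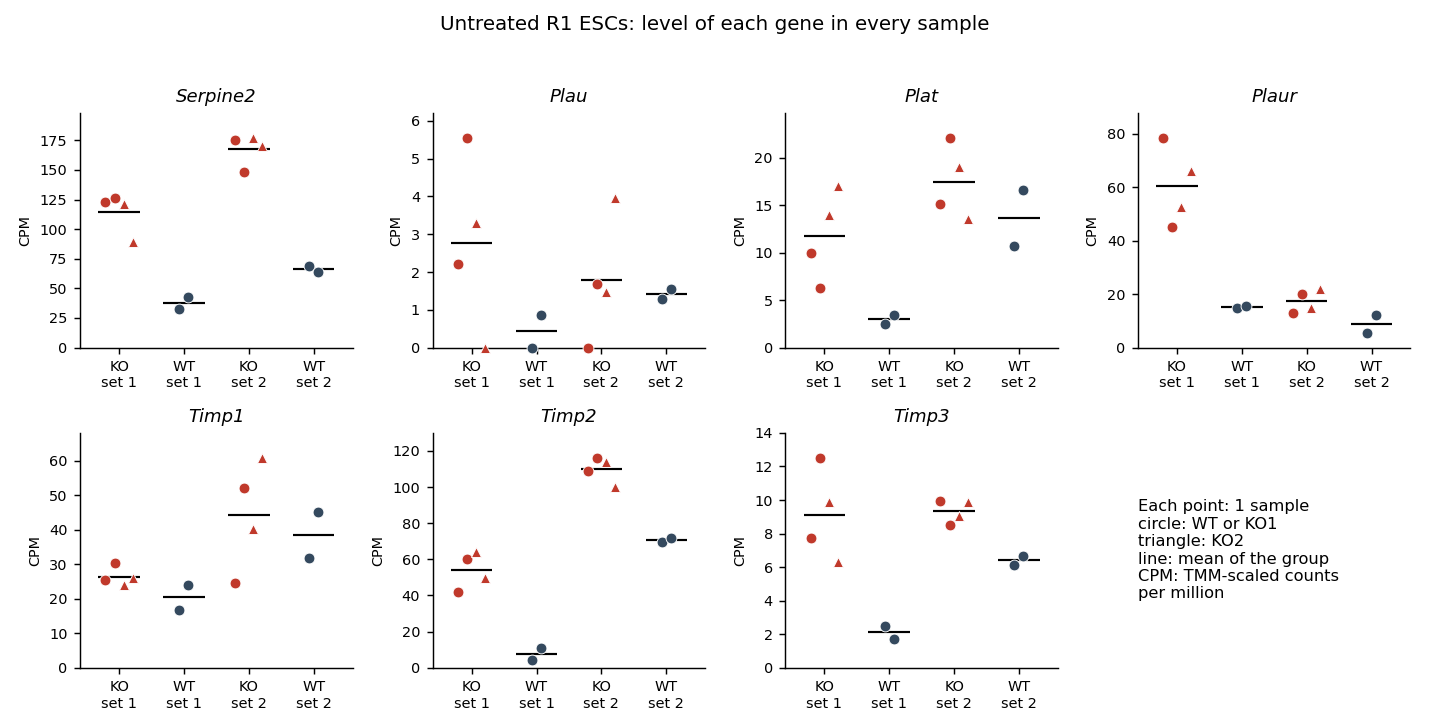
CPM (y axis, linear, from 0) of the 7 genes in each untreated R1 sample, with KO left of WT in set 1 and in set 2; circles are WT or KO1, triangles KO2, lines group means. Serpine2 and Timp2 lie above WT in all 8 KO samples, whereas KO and WT samples overlap for Timp1 in both sets.

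The activator inhibitor Serpine2 (GRCm38 chromosome 1, 79794197 to 79861180, minus strand) lay higher in KO in each set. It stood at 123, 126, 121 and 89.0 CPM in set 1 KO samples, against 32.6 and 43.1 CPM in WT. Set 2 gave 175, 148, 177 and 170 CPM in KO, against 68.5 and 63.7 CPM in WT. No KO sample overlapped WT in either set. How many of all genes separated KO from WT in this way was not counted, here or for the genes below. The log2 fold change was 1.6 (SE 0.22) in set 1, 1.36 (SE 0.12) in set 2 and 1.43 (SE 0.13) over both. The difference between the sets, -0.25 (SE 0.25), did not pass its own test.

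The activators rested on few counts in set 1. Plau (chromosome 14, 20836660 to 20843385, plus strand) stood at 2.21, 5.55, 3.29 and 0 CPM in set 1 KO, against 0 and 0.861 CPM in WT, which is 14 counts in 4 samples against 1 count in 2. Per depth that is a ratio of 6.41 with a 95% exact counting interval of 0.976 to 271, so a difference was not detectable at this depth. In set 2 Plau stood at 0, 1.67, 1.47 and 3.97 CPM in KO, against 1.29 and 1.56 CPM in WT, and the groups overlapped. It did not pass the low-count filter in the comparisons of untreated KO with WT.

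Plat (chromosome 8, 22757727 to 22782844, plus strand) stood at 9.96, 6.24, 14 and 17.0 CPM in set 1 KO, against 2.51 and 3.45 CPM in WT, where those values rest on 3 and 4 counts. The groups did not overlap, and the log2 fold change was 1.98 (SE 0.57). In set 2 they did overlap, with 15.1, 22.1, 19 and 13.6 CPM in KO against 10.7 and 16.6 CPM in WT (log2 0.33, SE 0.24). The set 1 call ended in the DESeq2 Wald test and without any 1 of samples 1a, 1b, 1c, 1e or 1f, where the log2 fold change lay between 1.71 and 2.23.

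Plaur (chromosome 7, 24462484 to 24475968, plus strand), the urokinase receptor, stood at 78.5, 45.1, 52.6 and 66.3 CPM in set 1 KO, against 15.0 and 15.5 CPM in WT. In set 2 its levels were lower throughout, at 12.9, 20.2, 14.9 and 21.8 CPM in KO against 5.49 and 12.1 CPM in WT. KO samples lay above WT in each set, narrowly in set 2. The log2 fold change was 1.98 (SE 0.30) in set 1 and 0.88 (SE 0.28) in set 2, and 1.30 (SE 0.25) over both. It passed in set 1 and over both sets, not in set 2. In set 2 it did pass with no low-count filter, with every library its own sample, and without sample 2c or 2f.

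Among the TIMPs, only Timp2 (chromosome 11, 118301069 to 118355740, minus strand) had a KO effect that differed between the sets by its own test. It stood at 42.0, 60.3, 64.2 and 49.9 CPM in set 1 KO, against 4.18 and 11.2 CPM in WT (5 and 13 counts). Set 2 samples stood at 109, 116, 114 and 100 CPM in KO, against 69.4 and 71.8 CPM in WT. KO lay above WT in both sets, but set 2 WT samples lay above set 1 KO samples. The log2 fold change was 2.82 (SE 0.35) in set 1 and 0.65 (SE 0.12) in set 2. The difference of the KO effect, set 2 minus set 1, was -2.19 (SE 0.35) and passed, as did 0.828% of all genes; the other 5 tested genes did not pass that test. Without WT sample 1a it was -1.65 and no longer passed. Timp2 in set 2 no longer passed without sample 2b (log2 0.66).

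Timp3 (chromosome 10, 86300372 to 86349506, plus strand), which binds to the matrix, stood at 7.74, 12.5, 9.87 and 6.31 CPM in set 1 KO, against 2.51 and 1.72 CPM in WT, or 3 and 2 counts. Levels in set 2 were 9.96, 8.54, 9.02 and 9.91 CPM in KO, against 6.14 and 6.67 CPM in WT. The groups did not overlap in either set, and log2 fold changes were 2.06 (SE 0.60) and 0.53 (SE 0.26). From the summed counts of set 1 the ratio was 4.31 with a counting interval of 1.72 to 13.9. The call of Timp3 in set 1 ended in DESeq2 and without 1a, 1b or 1c, and Timp3 was below the low-count filter without 1d or 1e. That over both sets ended without 1a or 1b, with counts added up by line, and with a replicate block and every library its own sample.

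Timp1 (chromosome X, 20870166 to 20874735, plus strand) stood at 25.4, 30.5, 23.9 and 25.9 CPM in set 1 KO, against 16.7 and 24.1 CPM in WT. Set 2 gave 24.7, 52.0, 40.1 and 60.8 CPM in KO, against 31.7 and 45.1 CPM in WT. The groups overlapped in both sets, with log2 fold changes of 0.38 (SE 0.27) and 0.20 (SE 0.28), neither of which passed.

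**Figure D2:**
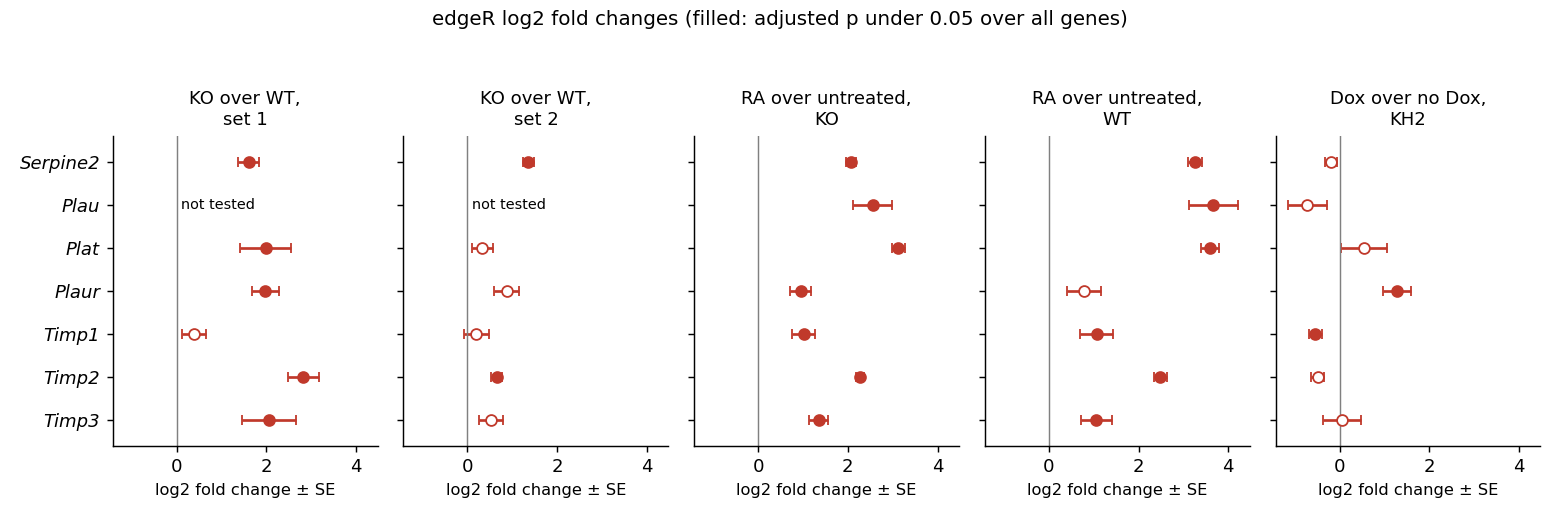
edgeR log2 fold changes ± SE (x axis) of the 7 genes (rows) in 5 comparisons, filled where the adjusted p over all genes was under 0.05. Serpine2 lies at 1.6 and 1.36 for KO over WT, and Timp2 at 2.82 in set 1 but 0.65 in set 2.

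Markers of other cells moved with these comparisons. The summed level of 25 markers of embryonic fibroblasts, the feeder type, ran from 783 to 1287 CPM in set 1 KO samples, against 426 to 554 CPM in WT, and from 1395 to 2102 CPM in set 2 KO, against 932 to 1102 CPM in WT. By group mean, 10 of the 25 reached 10 CPM in set 1 KO but 2 in set 1 WT, and 13 and 10 did in set 2. Over both sets the log2 fold change was above 0 for 17 of 19 tested, but -0.21 for Fn1. Of these 25 markers, Lum was at 0 in all set 1 samples, and Col6a2, Dcn, Postn and Fap were also at 0 in set 1 WT. Other markers were counted there, such as Col1a1 at 2.58 and 10.9 CPM. In the deeper set 2 WT samples, Dcn and Postn had 27 and 22 counts. Over both sets 7 of the 19 tested fibroblast markers were higher in KO and 0 lower (edgeR), and 12 of 15 tested endoderm markers were higher. Of all genes, 10.1% were higher and 8.52% lower. The endoderm sum ran from 1677 to 2255 CPM in set 1 KO, against 777 to 917 CPM in WT, and from 1335 to 1558 CPM in set 2 KO, against 811 to 827 CPM in WT. The sum of 10 ESC markers was lower, at 1599 to 1905 CPM in set 1 KO against 3524 to 3861 CPM in WT. The difference of the KO effect, set 2 minus set 1, passed for 3 of the 19 fibroblast markers, in the same direction as for Timp2. These were Col1a1 (log2 -2.14), Thbs1 (log2 -2.37) and Acta2 (log2 -4.22). Of all genes, 0.669% were lower in that difference. The part of these markers in the levels of the 7 genes was not tested. In such bulk RNA, fewer cells of a type and less RNA per cell cannot be told apart.

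Taken by sub-batch of set 2, single KO libraries held more Serpine2 and Timp2 than WT libraries in A and in B. Serpine2 stood at 124 to 169 CPM in KO libraries of A, against 53.2 and 54.8 CPM in WT, and at 161 to 181 CPM in KO libraries of B, against 78.7 and 97 CPM in WT. Its log2 fold change was 1.48 within A and 0.96 within B. Timp2 gave 0.63 within A and 0.59 within B. Both genes passed in each sub-batch. Plaur gave 0.83 within A, which did not pass, and 1.56 within B, which did. Timp1 stood at 50.8 to 79.0 CPM in KO libraries of A, against 38.6 and 46.9 CPM in WT, but at 24.6 to 35.8 CPM in KO libraries of B, against 25.3 and 36.1 CPM in WT (log2 0.56 and 0.04, neither of which passed). Plat gave -0.08 within A and 0.54 within B, neither of which passed. Of the 6 genes tested in each, 2 passed within A, beside 4.06% of all genes, and 3 within B, beside 13.7%.

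**Figure D3:**
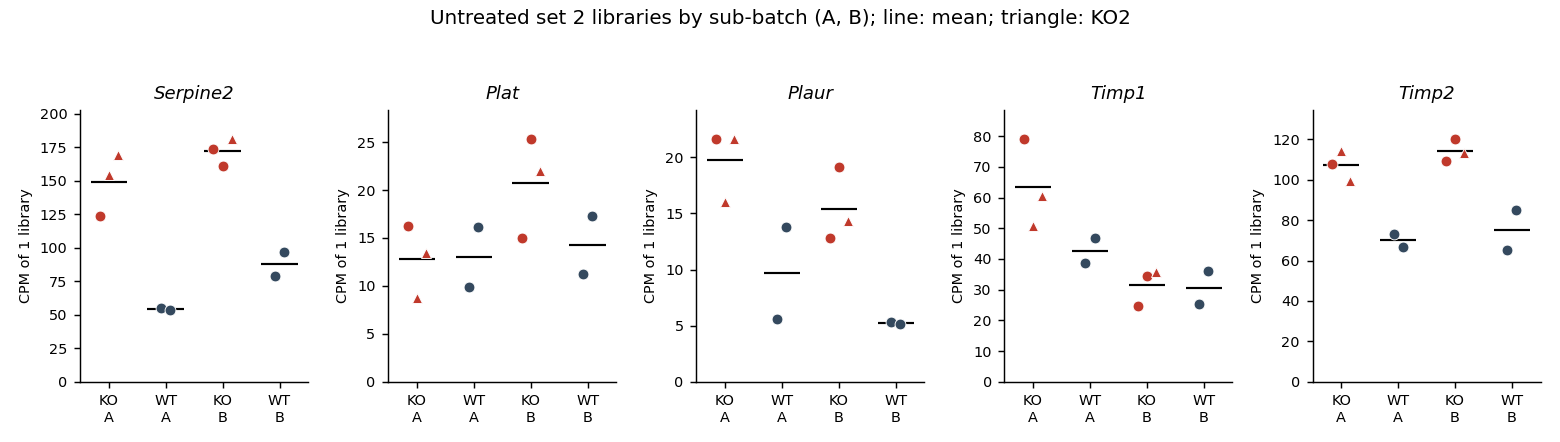
CPM (y axis, from 0) of single untreated set 2 libraries by sub-batch, KO left of WT, for 5 of the 7 genes; triangles are KO2 and lines are means. KO libraries lie above WT for Serpine2, Plaur and Timp2 in both A and B, those of Plat overlap WT in both, and Timp1 separates KO from WT in A alone.

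Other genes of extracellular proteolysis were taken from a list of 71. This list was chosen with earlier results of these data known, so its counts are a description. Over both sets 38 of these were tested, of which 13 were higher and 2 lower in KO (edgeR), with a median log2 fold change of 0.49. Of all genes, 10.1% were higher and 8.52% lower. Around plasminogen, 3 of 9 tested genes were higher: the surface protease gene St14 (log2 0.97, edgeR adjusted p = 0.000105), S100a10, whose product docks plasminogen at the membrane (log2 0.59, adjusted p = 0.000474), and the tissue factor gene F3 (log2 1.84, adjusted p = 0.00737). F3 did not pass in set 1 alone (edgeR adjusted p = 0.109). Plg, plasminogen itself, had 0 counts in every sample of the series, which allows no more than the floor in each. The uptake receptor Lrp1 did not pass (log2 0.10, SE 0.14, adjusted p = 0.680).

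Over both sets the other serpins higher in KO were Serpinh1, the collagen chaperone (log2 1.31, edgeR adjusted p = 6.25e-08), and Serping1, the C1 inhibitor (log2 1.02, adjusted p = 0.00853), 2 of 6 tested. Serping1 did not pass in set 2 alone (edgeR adjusted p = 0.123).

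Of the 8 metalloproteinases tested, 4 were higher and 1 lower in KO over both sets (edgeR). Mmp25 (log2 1.33, adjusted p = 7.67e-05) and Mmp15 (log2 0.79, adjusted p = 0.00769) encode membrane-bound enzymes. Mmp2, a gelatinase that TIMP2 helps to activate, was at 12.6 to 17.3 CPM in set 1 KO against 4.18 and 5.17 CPM in WT, and at 10.5 to 19.9 CPM in set 2 KO against 7.43 and 10.6 CPM in WT (log2 0.88, edgeR adjusted p = 0.00974). Mmp14, the membrane enzyme that cleaves pro-MMP2, did not pass (log2 0.19, SE 0.13, adjusted p = 0.317). Mmp11 was lower in KO (log2 -1.09, edgeR adjusted p = 0.000277). Among ADAM and ADAMTS genes 4 of 14 were higher, led by Adamts7 (log2 1.59, edgeR adjusted p = 0.000805) and Adam8 (log2 1.66, adjusted p = 0.00214), and Adam23 was lower (log2 -0.51, adjusted p = 0.00491). Taken alone, set 1 did not pass Adam8 (edgeR adjusted p = 0.187) or Mmp15 (adjusted p = 0.273), and set 2 did not pass Mmp2 (adjusted p = 0.159). Adamts7 had 1 count over both set 1 WT samples and was not tested in set 1. The MMP inhibitor Reck did not pass (log2 0.32, SE 0.48, edgeR adjusted p = 0.696). Anxa2, which pairs with S100a10, was higher in set 1 KO (log2 0.91, edgeR adjusted p = 0.00323) but not in set 2, and the difference between sets passed (log2 -0.93, edgeR adjusted p = 0.0313). No gene of the list passed that difference without 1a, 1e, 2a, 2b or 2d, or with a replicate block and every library its own sample.

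Lines KO2 and KO1 offer a comparison that did not enter the selection. In edgeR, 0 of the 6 genes tested passed in set 1 and 0 of 7 in set 2, where 0.0102% and 0% of all genes passed. An unadjusted p under 0.05 was reached by 710 of the 9764 genes tested in set 1 and by 909 of 14659 in set 2. Over all genes DESeq2 also called 0 in set 2. Calls over all genes came to 196 in set 1 without 1c and to 172 in set 2 without 2e, while the 7 genes still gave 0. At an unadjusted p under 0.05 stood Plat alone, in set 1, at 14 and 17.0 CPM in KO2 against 9.96 and 6.24 CPM in KO1 (log2 1.02, SE 0.44, edgeR adjusted p = 0.654); DESeq2 also passed 0 in each set. In set 2 Plat was at 19 and 13.6 CPM in KO2 against 15.1 and 22.1 CPM in KO1, and the lines overlapped. Serpine2 differed by -0.23 (SE 0.22) between the lines in set 1 and by 0.11 (SE 0.13) in set 2, and Timp2 by 0.15 (SE 0.28) and -0.07 (SE 0.12), all on the log2 scale. Of the list of 71, 0 of 32 tested genes passed in set 1 and 0 of 51 in set 2, by edgeR or DESeq2, with 1 and 4 at an unadjusted p under 0.05 in edgeR. A p that misses the threshold does not show that the lines were alike.

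After 4 days of RA the levels of all 7 genes lay above those of untreated set 2 samples of the same genotype, in KO and in WT. How many of all genes lay above in this way was not counted, and in WT 1 sample was set against 2. In KO, 7 of 7 passed, beside 55.1% of all genes; in WT, 6 of 7 passed, all but Plaur, beside 47.3%. RA moved so many of all measured genes that the count is a description. The single WT RA sample has no replicate of its own, so its test assumes that it varies like the other set 2 groups. The RA libraries were not part of the cut into sub-batches, so their sub-batch is not known. Both RA effects, their difference and KO against WT after RA share samples, so their values are given side by side.

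**Figure D4:**
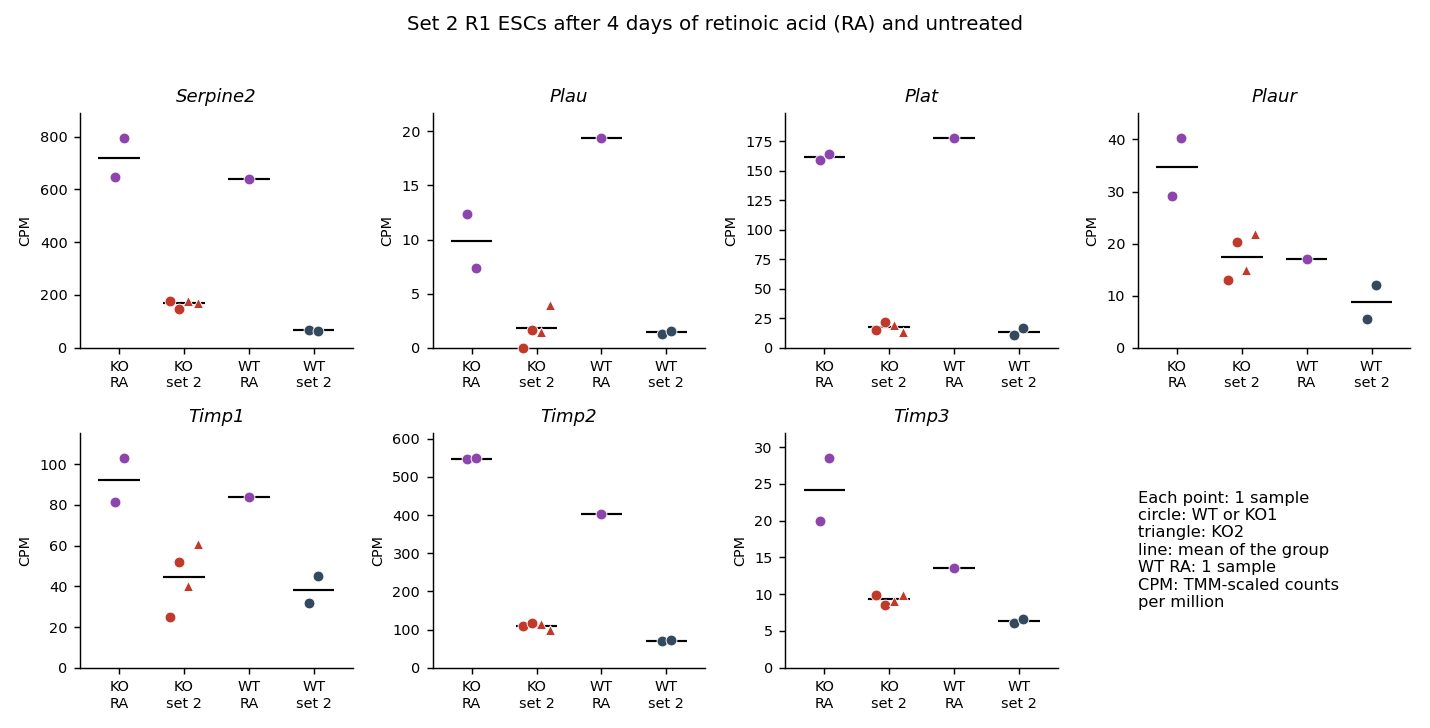
CPM (y axis, linear, from 0) of the 7 genes in set 2 samples, with RA left of untreated cells for KO and for WT; circles are WT or KO1, triangles KO2, lines group means. Plat stands at 159 to 178 CPM after RA against 10.7 to 22.1 CPM without it, and Plaur in the WT RA sample lies within the untreated KO range.

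Plat, the tissue-type activator, stood at 159 and 164 CPM in KO RA samples, against 13.6 to 22.1 CPM in untreated KO, and at 178 CPM in the WT RA sample, against 10.7 and 16.6 CPM in untreated WT. Its log2 fold change was 3.13 (SE 0.15) in KO and 3.60 (SE 0.21) in WT. Plau stood at 12.4 and 7.38 CPM in KO RA samples, against 0 to 3.97 CPM in untreated KO, and at 19.4 CPM in the WT RA sample, against 1.29 and 1.56 CPM in untreated WT. The log2 fold changes of Plau were 2.55 (SE 0.43) and 3.67 (SE 0.54). Both activators thus lay at higher levels after RA than in any untreated sample of set 2.

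Serpine2 stood at 645 and 795 CPM in KO RA samples, against 148 to 177 CPM in untreated KO, and at 638 CPM in the WT RA sample, against 68.5 and 63.7 CPM in untreated WT. The log2 fold change was 2.07 (SE 0.10) in KO and 3.26 (SE 0.15) in WT. The difference of the RA effect, KO minus WT, was -1.19 (SE 0.19) and passed, as did 1.09% of all genes. The untreated KO level was the higher one, and after RA KO and WT lay close together. With every library its own sample this difference was -1.03 and did not pass; without 2i it was -1.34 and passed. None of the other 6 genes passed it.

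Plaur stood at 29.1 and 40.3 CPM in KO RA samples, against 12.9 to 21.8 CPM in untreated KO, and at 17.0 CPM in the WT RA sample, against 5.49 and 12.1 CPM in untreated WT. Its log2 fold change of 0.95 (SE 0.23) in KO passed; without 2i it was 0.70 and did not, while the other 6 genes still passed. That of 0.79 (SE 0.37) in WT did not pass, although without sample 2b it was 1.59 and did. Timp2 stood at 546 and 549 CPM in KO RA samples, against 100 to 116 CPM in untreated KO, and at 402 CPM in the WT RA sample, against 69.4 and 71.8 CPM in untreated WT (log2 2.28, SE 0.10, and 2.49, SE 0.14).

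Timp3 stood at 19.9 and 28.5 CPM in KO RA samples, against 8.54 to 9.96 CPM in untreated KO, and at 13.6 CPM in the WT RA sample, against 6.14 and 6.67 CPM in untreated WT (log2 1.35, SE 0.22, and 1.05, SE 0.35). Timp1 stood at 81.6 and 103 CPM in KO RA samples, against 24.7 to 60.8 CPM in untreated KO, and at 83.8 CPM in the WT RA sample, against 31.7 and 45.1 CPM in untreated WT (log2 1.01, SE 0.26, and 1.07, SE 0.37). In WT the calls of Timp1 and Timp3 both ended in the DESeq2 Wald test, that of Timp1 also without sample 2a or with every library its own sample, and that of Timp3 without 2b.

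Of the list of 71, 51 genes were tested for RA, and 32 were higher and 6 lower in KO and 31 higher and 3 lower in WT (edgeR), with median log2 fold changes of 1.23 and 1.73. Over all genes, 28.3% were higher and 26.8% lower in KO, and 24.8% and 22.5% in WT. Lrp1 was higher (log2 2.01 in KO and 2.35 in WT, edgeR adjusted p = 2.57e-14 and 2.3e-12), as was F3 (log2 2.96 and 3.88, adjusted p = 1.68e-09 and 2.73e-08). Mmp14 stood at 209 and 257 CPM in KO RA samples and 258 CPM in the WT RA sample (log2 2.15 and 2.5, edgeR adjusted p = 3.19e-15 and 3.03e-13). Mmp2 (log2 1.88 and 2.38, adjusted p = 5e-10 and 9.49e-09) and Reck (log2 1.24 and 1.84, adjusted p = 0.0296 and 0.0374) were higher too. Adamts5, an aggrecan-cleaving protease, was higher (log2 3.75 and 5.13, edgeR adjusted p = 7.92e-12 and 3.2e-11), and Adam23 was lower (log2 -2.12 and -1.97, adjusted p = 1.09e-11 and 2.59e-08). Serpinh1, higher in both, had a smaller RA effect in KO than in WT (difference -1.14, SE 0.18, edgeR adjusted p = 0.00114), as Serpine2 did. With every library its own sample, 0 of the list passed that difference.

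Fibroblast markers moved with RA as well: 20 of 22 tested were higher in KO and 18 of 22 in WT (edgeR), and their sum reached 8531 and 10112 CPM in KO RA samples and 8709 CPM in the WT RA sample. Col1a1 stood at 381 and 384 CPM in KO RA samples against 45.0 to 64.8 CPM in untreated set 2 KO. Of the 25 markers, 0 and 1 were at 0 in KO RA samples and 1 in the WT RA sample, and 18 stood at 10 CPM or more in each. ESC markers were lower, 10 of 10 in each genotype, with sums of 325 to 333 CPM in KO RA samples against 1743 to 2016 CPM in untreated set 2 KO, and of 285 CPM in the WT RA sample against 2691 to 2932 CPM in untreated WT. Of 16 endoderm markers tested, 13 were higher and 1 lower after RA in KO, and 7 higher and 1 lower in WT. Of all genes, 28.3% were higher and 26.8% lower in KO, and 24.8% and 22.5% in WT, so these marker counts are a description. The part of these markers in the RA values was not tested.

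Between KO and WT after RA, 0 of the 7 genes passed in edgeR, nor did any in DESeq2, beside 0.396% of all genes. At an unadjusted p under 0.05 stood 4 of them: Timp2 (log2 0.43, SE 0.14), Plaur (log2 1.01, SE 0.35), Timp3 (log2 0.81, SE 0.32) and, in the other direction, Plau (log2 -0.99, SE 0.45). Of all 14659 genes tested, 929 stood under that unadjusted threshold in edgeR. Serpine2 (log2 0.15, SE 0.15), Plat (log2 -0.16, SE 0.19) and Timp1 (log2 0.12, SE 0.37) stood nearer to 0. Without 2i, Serpine2 stood at 0.00 (SE 0.18) and Timp1 at -0.05 (SE 0.39). Of the list of 71, 0 of the 51 tested passed in edgeR or in DESeq2, and 5 stood at an unadjusted p under 0.05 in edgeR. Endoderm markers summed to 2662 and 2840 CPM in KO RA samples against 1435 CPM in the WT RA sample, and 8 of the 16 tested were higher in KO; their part was not tested.

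With Dox in KH2 ESCs that carry inducible SETa, Plaur was higher and Timp1 lower, 2 of 7 genes, beside 1.8% of all genes. Plaur stood at 12.1 and 10.5 CPM with Dox, against 3.83 and 5.48 CPM without Dox (18 to 75 counts a sample; log2 1.29, SE 0.31). Timp1 stood at 58.3 and 50.8 CPM with Dox, against 77.9 and 81.1 CPM without Dox (log2 -0.54, SE 0.14). Neither pair of groups overlapped, but how many of all genes separated these few samples was not counted. Both calls ended without either sample lacking Dox, that of Plaur also without Dox sample 1 and that of Timp1 without Dox sample 2 and in the DESeq2 Wald test. DESeq2 gave Plaur no adjusted p. Set itself stood at 1263 and 1119 CPM with Dox against 1016 and 955 CPM without, which did not pass (log2 0.28, SE 0.10, edgeR adjusted p = 0.175). Whether the tag reads the transgene was not tested.

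**Figure D5:**
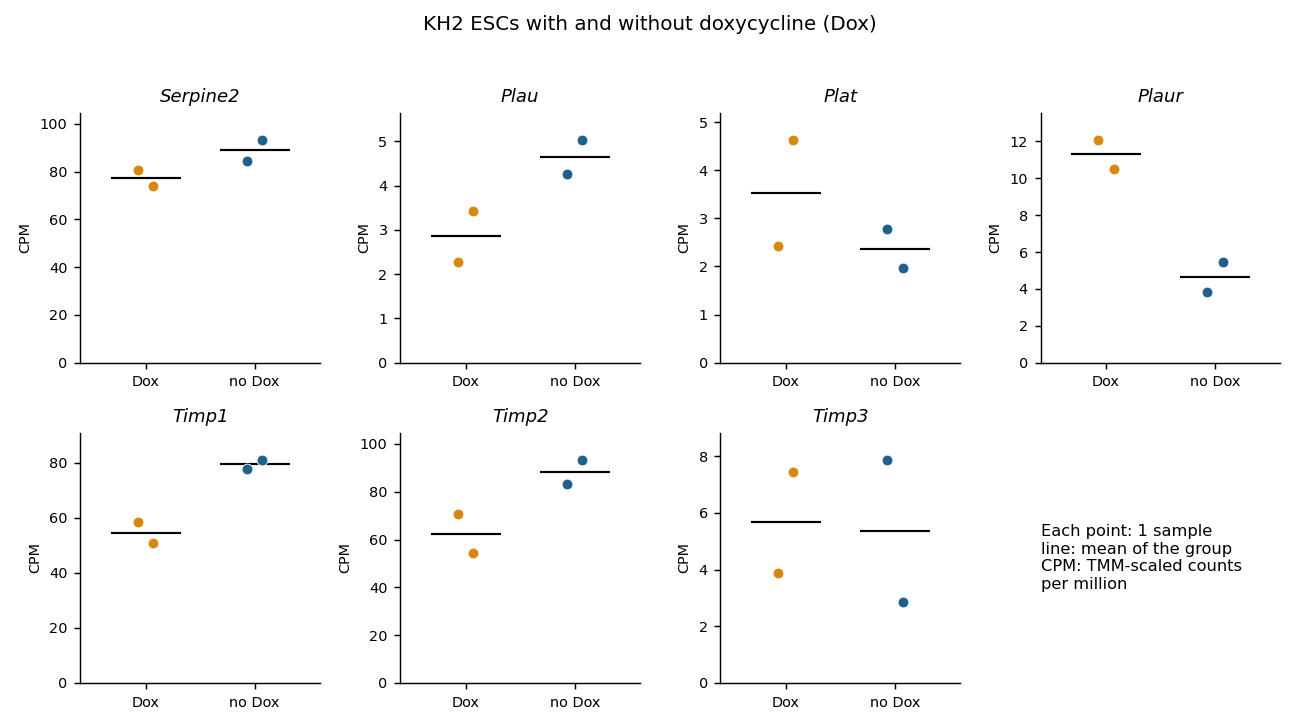
CPM (y axis, linear, from 0) of the 7 genes in KH2 ESCs with Dox (left) and without it (right); points are samples and lines are means. Plaur at 10.5 and 12.1 CPM lies above both samples without Dox, while Timp1, Timp2, Serpine2 and Plau lie below them. Only Plaur and Timp1 passed, and how many of all genes separate the groups in this way was not counted.

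Timp2 was at 70.8 and 54.2 CPM with Dox against 83.1 and 93.4 CPM without Dox (log2 -0.49, SE 0.14), which did not pass, although it passed without Dox sample 1 and with no low-count filter. Serpine2 was at 80.8 and 73.8 CPM with Dox against 84.3 and 93.4 CPM without (log2 -0.20, SE 0.13). Plau was at 2.27 and 3.43 CPM with Dox against 4.26 and 5.04 CPM without (log2 -0.72, SE 0.44). Plat, at 2.43 and 4.64 CPM with Dox against 2.77 and 1.97 CPM without, and Timp3, at 3.89 and 7.46 CPM with Dox against 7.88 and 2.85 CPM without, overlapped between the groups. Apart from Plaur and Timp1, then, none of the genes passed.

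In the same comparison Col1a1 stood at 302 to 358 CPM with Dox against 504 to 566 CPM without Dox, and 6 of 22 tested fibroblast markers were lower and 1 higher, while their sum was 2644 to 3128 CPM with Dox against 2670 to 2750 CPM without. Of all genes, 0.904% were lower and 0.896% higher. Of the 25 markers, 1 was at 0 in each sample with Dox, and 0 and 1 without Dox; 11 and 10 stood at 10 CPM or more with Dox, and 12 in each sample without. The part of fibroblast RNA in the Timp1 value was not tested. Of the list of 71, 42 were tested and 2 were lower, Anxa2 (log2 -0.84, edgeR adjusted p = 6.93e-05) and Adam15 (log2 -0.53, edgeR adjusted p = 0.0489). Of these calls, 0 were left without no-Dox sample 2. Mmp2 (log2 -0.50, adjusted p = 0.397), Mmp14 (log2 0.10, adjusted p = 0.859), Reck (log2 1.16, adjusted p = 0.381) and Lrp1 (log2 -0.07, adjusted p = 0.869) did not pass in edgeR.

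The order of the group levels differed from gene to gene. Serpine2 was highest in KO RA, at a mean of 720 ± 106 CPM (SD, n = 2), and in WT RA, at 638 CPM (n = 1). Set 2 KO at 168 ± 13.2 CPM and set 1 KO at 115 ± 17.3 CPM (n = 4 each) came next. KH2 cells, at 77.3 ± 4.97 CPM with Dox and 88.8 ± 6.37 CPM without, were followed by set 2 WT at 66.1 ± 3.4 CPM and set 1 WT at 37.8 ± 7.41 CPM (n = 2 each). Of neighbours in that order, only set 1 KO and KH2 cells without Dox overlapped.

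Timp2 was also highest in KO RA, at 547 ± 1.94 CPM (n = 2), and in WT RA, at 402 CPM, followed by set 2 KO, KH2 cells without Dox and set 2 WT. KH2 cells with Dox, at 62.5 ± 11.7 CPM (n = 2), overlapped set 2 WT and set 1 KO, which stood at 54.1 ± 10.1 CPM (n = 4), and set 1 WT was lowest at 7.69 ± 4.96 CPM (n = 2). Plaur had its highest mean in set 1 KO, 60.6 ± 14.8 CPM (n = 4), above 34.7 ± 7.89 CPM (n = 2) in KO RA, and its lowest in KH2 cells without Dox, 4.66 ± 1.16 CPM (n = 2). WT RA and set 1 WT lay within the Plaur range of set 2 KO, and KH2 cells with Dox overlapped set 2 WT. It was thus the 1 gene of the 7 whose highest group had no RA.

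Timp1 in KH2 cells without Dox, 79.5 ± 2.21 CPM (n = 2), lay just below its levels of 92.3 ± 15.2 CPM in KO RA (n = 2) and 83.8 CPM in WT RA, which overlapped each other. Set 1 had the lowest group means of Timp1, at 26.4 ± 2.86 CPM in KO (n = 4) and 20.4 ± 5.23 CPM in WT (n = 2). Plat in KH2 cells, 3.53 ± 1.56 CPM with Dox and 2.37 ± 0.563 CPM without (n = 2 each), overlapped set 1 WT, at 2.98 ± 0.663 CPM (n = 2), and its set 1 KO, set 2 KO and set 2 WT samples overlapped each other. Timp3 stood at 24.2 ± 6.02 CPM in KO RA (n = 2) and 13.6 CPM in WT RA, and its KO samples of the 2 sets overlapped, at 9.1 ± 2.68 CPM in set 1 and 9.36 ± 0.699 CPM in set 2 (n = 4 each). Plau, after 9.87 ± 3.53 CPM in KO RA (n = 2) and 19.4 CPM in WT RA, was at 0 to 5.55 CPM in untreated KO samples, a range that overlapped every other group without RA.

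Across all 19 samples, on log2(CPM + 1), Serpine2 went most closely with Timp2 among the 7 genes (Pearson r = 0.91) and with Plat (0.89), and Plaur went with none of them above 0.40. In the 12 untreated R1 samples alone the r of Serpine2 was 0.86 with Timp2, 0.73 with Plat and 0.89 with Timp3, and Plaur and Timp2 stood at 0.00. These values describe groups that share treatment, set and libraries, and carry no test. Outside the 7, among genes that averaged 10 CPM or more, Serpine2 was most like Tap1 (0.979), Unc5b (0.979) and Rnf128 (0.974). Plat was close to Parm1 (0.982) and Stmn4 (0.976), and Plau like Slc48a1 (0.889), Actb (0.882) and Pard3 (0.860). The highest for Plaur were Adgrl2 (0.923), Myadm (0.896) and Lamc1 (0.893). Timp1 was most like Bgn (0.937), Lamp2 (0.924) and Anxa2 (0.920), Timp2 like Cavin1 (0.976), Gsn (0.974) and Ier5 (0.974), and Timp3 like Ccn4 (0.928), Rhou (0.919) and Ahnak (0.913).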

How the data were processed

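The authors deposited raw read counts; featureCounts 1.6.0 assigned reads to Ensembl release 97 genes (GRCm38), per the file headers. Reads were aligned with STAR 2.5.4b, per the submitters' processing notes. Gene ranges are those of the count files. Libraries with 1 title code were summed, which turned 23 libraries into 19 samples. Chi-square per degree of freedom between libraries of 1 group showed no library deposited a second time within its group. Libraries of different groups were not compared in this way. Counts were tested with edgeR 4.0.16 (R 4.3.3; quasi-likelihood F test, TMM, filterByExpr with minimum count 10 and total 15) across all genes with Benjamini-Hochberg adjustment and a threshold of 0.05, after a check on simulated data. SE is the log2 fold change divided by the square root of F. Set was a covariate over both sets, RA effects came from 1 fit of set 2 by group means (KO RA against the mean of KO1 and KO2), and KH2 cells were fitted alone. CPM are TMM-scaled. Counting intervals are 95% and cover counting error only. The 7 genes, the lists and the tests were chosen with earlier results of these data known. Besides the 7 genes, the text names per comparison and role up to 4 listed genes with the smallest adjusted p, some of which are left out for length, always Plg, Mmp2, Mmp14, Reck and Lrp1 where tested, and the 3 genes most like each; some genes under this rule are not reported here. Alternatives were DESeq2 1.42.0 size factors, its Wald test, no low-count filter, each sample left out, every library its own sample, a replicate block, sums per line and set, KO1 alone as RA control and, chosen after seeing the data, sub-batches. Figures were drawn with matplotlib 3.10.9.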

Additional observations from a re-analysis of the deposited data

Results flagged for a closer look

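In set 1 KO, 1 sample of Serpine2 lay apart from the other 3: it stood at 89.0 CPM in KO2 replicate 2 and at 121 to 126 CPM in the others, still above the WT samples. By its gap, 14 groups of samples were examined in this way, and chance marks about 1 in 20. The KO effect on Timp2 differed between the sets by -2.19 on the log2 scale (set 2 minus set 1) by an interaction term, and set 1 WT Timp2 rested on 5 and 13 counts. The RA effect on Serpine2 differed between KO and WT by -1.19 on the log2 scale (KO minus WT) by an interaction term, with 1 WT RA sample.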

How the results depend on the processing

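Of the 7 genes, 4 passed over both sets, against 3 to 5 with 1 sample left out and 2 when counts were added up by line within a set, where Timp2 (log2 1.16) and Timp3 (log2 0.80) no longer passed. In set 1, 5 passed, against 3 in the DESeq2 Wald test and 3 to 4 with 1 sample left out. In set 2, 2 passed, against 1 to 3 with 1 sample left out. The difference between sets passed for 1 gene, or 0 to 1 with 1 sample left out (0 without 1a), and the difference of the RA effect for 1, or 0 with every library its own sample. For Dox, 2 passed, against 0 in DESeq2 and 0 to 2 with 1 sample left out.

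Not every pair of same-numbered samples deviated together: r of deviations was 0.0457, -0.144 and -0.0913 in set 1 and 0.0355 in KH2 cells. In set 2, where KO2 and WT libraries of 1 number lay in the same sub-batch and those of KO1 in the other, it was 0.175 to 0.225 for KO2 with WT, but -0.199 to -0.134 for KO1 with WT and -0.267 to -0.0818 for KO2 with KO1. With the replicate number as a block, 5 genes passed in set 1, 0 for KO2 against KO1 in set 1 and 3 for Dox, Timp2 being the added one (log2 -0.50); calls over all genes were 1032 in set 1 against 1200 without the block, 1 against 1 for KO2 against KO1, and 724 for Dox against 229. Elsewhere the block was fitted with every library its own sample and is set against that fit without the block. It gave 3 genes over both sets against 4, 2 in set 2 against 3, and 1 for the difference between sets against 1; over all genes it gave 1726 against 2091, 447 against 759 and 42 against 78.

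Direction turned in values that had not passed. Plat in set 2 was -0.08 within sub-batch A. For KO2 against KO1, Plaur was -0.03 in DESeq2 in set 1 and -0.03 with every library its own sample in set 2. Timp1 in the difference of the RA effect was 0.09 with KO1 alone as control. With 1 sample left out, log2 values for KO2 against KO1 in set 1 lay between -0.42 and 0.45 for Plaur, -0.05 and 0.40 for Timp2 and -0.70 and 0.00 for Timp3. In set 2 they lay between -0.01 and 0.22 for Serpine2, -0.51 and 0.14 for Plat, -0.22 and 0.46 for Plaur, -0.08 and 1.00 for Timp1, -0.17 and 0.00 for Timp2 and -0.09 and 0.13 for Timp3. The difference between sets lay between -0.48 and 0.10 for Timp1, and KO against WT after RA between -0.05 and 0.28 for Timp1. The difference of the RA effect lay between -1.55 and 1.58 for Plau, -0.65 and 0.46 for Plaur and -0.36 and 0.30 for Timp1, and Dox between -0.50 and 0.96 for Timp3, -0.47 being that without Dox sample 2. The cause was not tested.

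Depth limits Plau, Plat and Timp3 most, with 1, 7 and 5 counts over both set 1 WT samples. Calls over all genes also depended on single samples: they ran from 195 (without 2b) to 2335 (without 2f) in set 2, from 570 (without 1a) to 1388 (without 1d) in set 1, from 22 (without 1a) to 127 (without 1d) for the difference between sets, from 15 (without 2i) to 34 (without 2h) after RA, where 58 passed with all samples, from 27 (without 2b or 2h) to 388 (without 2f) for the difference of the RA effect, to 196 (without 1c) for KO2 against KO1 in set 1 and 172 (without 2e) in set 2, and from 6 (without no-Dox sample 2) to 234 for Dox. Without the low-count filter calls over all genes came to 25 and 24 for KO2 against KO1 in set 1 and set 2, against 1 and 0, to 171 for the difference between sets, against 99, to 94 after RA, against 58, and to 284 for the difference of the RA effect, against 160. With every library its own sample they came to 759 in set 2, against 1165, 8 after RA, against 58, and 2 for the difference of the RA effect, against 160. DESeq2 gave 127 for Dox, against 229, and 102 for the difference of the RA effect. Sums per line and set gave 1445 over both sets, and sub-batch A alone gave 434 in set 2.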
